A study of Mus musculus with 21 samples.

Results

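The cell-surface Toll-like receptors of the mouse neocortex were examined through 8 genes chosen by their symbols, namely the receptors Tlr1, Tlr2, Tlr4 and Tlr6, the coreceptors Cd14 and Ly96, the adaptor Myd88 and the kinase Irak4. All 8 have a row among the 48474 rows of the deposited count table, and all 8 were among the 19052 genes with enough counts to be tested. Bulk RNAseq covered the neocortex of 11 mice labelled WT and 10 mice labelled TG, from batches A (4 WT and 3 TG mice) and B (7 WT and 7 TG mice), which the design text calls independent cohorts. The labels and the methods name the cortex, while a legend of the paper names the hippocampus for these mice. TG mice were rNLS8 mice, in which the promoter of the neurofilament heavy chain gene, a neuronal gene, drives a doxycycline-repressed transactivator and through it human TDP-43ΔNLS. The WT mice were littermates that the design text calls monogenic controls, so they may carry either transgene alone. Both groups had been injected once intracerebroventricularly at an age of 17 to 19 weeks with 350 µg (10 µL) of a control oligonucleotide without a target, and were fed doxycycline at 200 mg/kg until 2 weeks later. Tissue was taken after 3 further weeks on chow without doxycycline, in WT and TG mice alike. No mouse without the oligonucleotide was analysed here, so every level given below is a level after that injection.

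Toll-like receptors are membrane proteins that recognise conserved microbial molecules and products of damaged cells. TLR2 binds lipoproteins as a heterodimer with TLR1 or with TLR6, whereas TLR4 binds lipopolysaccharide together with MD-2, the product of Ly96, after CD14 has delivered the ligand. On binding, the receptors recruit MYD88, which assembles IRAK4 and further kinases and leads to activation of NF-kappaB. In the brain these receptors are found mainly on microglia and on macrophages at the brain borders.

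The libraries held from 20700912 to 22263809 counts, and 3 counts correspond to between 0.135 and 0.145 CPM (counts scaled to the library total). The members are rare transcripts, with between 3 and 164 counts per mouse. Among WT mice, counting error alone gives a coefficient of variation between 9.73% (Myd88) and 33.2% (Ly96), beside observed values between 11.9% and 47.0%. The observed value exceeded that of counting error for Tlr4, Tlr6, Ly96 and Myd88. It was below it for Tlr1 (23.15% against 31.06%), Tlr2, Irak4 and, barely, Cd14 (15.08% against 15.17%). For Tlr1, Tlr2, Irak4 and Cd14, no spread among WT mice beyond counting was thus seen. Rorb, a gene of cortical layer neurons, had at least 551 normalised counts in every mouse, whereas the striatal gene Drd2 varied from 62.2 to 1232 among WT and from 119 to 1438 among TG mice. Of 7 markers of neighbouring regions tested, 1 was lower, the striatal Drd1 (log2 fold change -0.66). Levels are given as normalised counts, scaled to the mean effective library size of 21380187. Differences are given as log2FC, the log2 fold change of TG versus WT mice. Of the TG mice, TG mouse 8 of cohort A was highest for 7 of the 8 members and TG mouse 9 of cohort A for the remaining one, Ly96. The mean over the members was 1.46 log2 CPM in TG mouse 8 and 1.10 in TG mouse 9, compared with 0.60 to 0.86 in the other TG mice. Calls and cohort differences that changed without TG mouse 8 are also given without it.

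In TG mice 4 of the 8 members were higher (Tlr2, Tlr1, Cd14 and Tlr4) and 0 were lower, by the quasi-likelihood test of edgeR with a cohort term and an adjusted p below 0.05. By the same criterion, 43.6% of all genes tested changed, with 22.4% higher and 21.2% lower. Scaling by library size only gave 5932 higher and 2799 lower genes in place of 4261 and 4044. The median log2FC was 0.36 over the 8 members, beside -0.0018 over all genes tested. For Tlr2 and Tlr1 every TG mouse lay above every WT mouse, as for 3.72% of all genes tested, while no member had every TG mouse below every WT mouse (3.67% of genes). The same pair was past the threshold with a log2FC over 1, as were 1.59% of genes tested. Without TG mouse 8, 3 members were higher, because Tlr4 was no longer past the threshold.

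**Figure D1:**
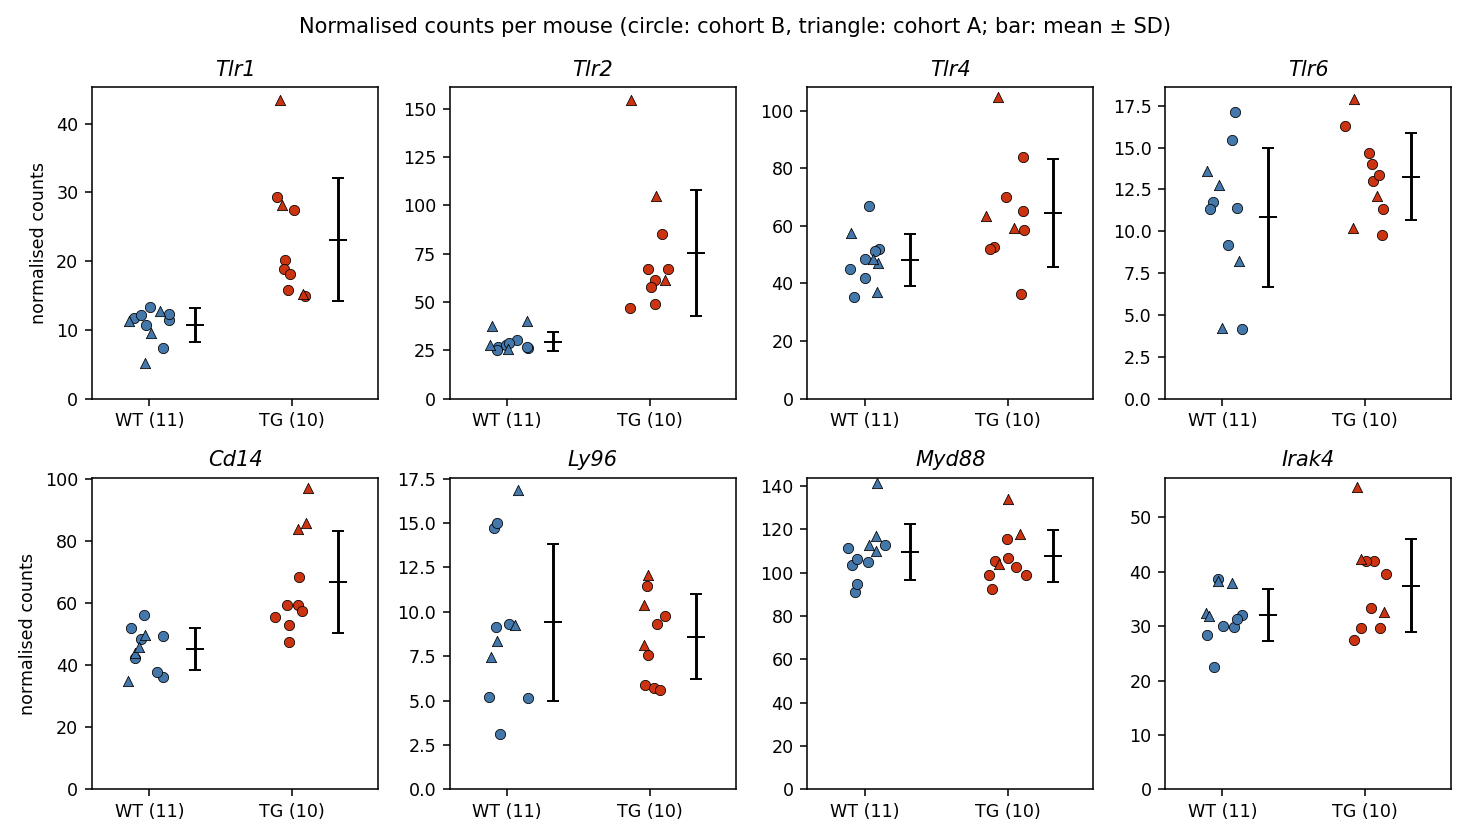
Normalised counts of the 8 members (y axis, one panel per gene) in every WT and TG mouse, with circles for cohort B, triangles for cohort A and bars for mean ± SD. All 10 TG mice lie above the WT mice for Tlr1 and Tlr2, while the groups overlap for the other members.

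Tlr2, the receptor subunit shared by both lipoprotein-sensing heterodimers, had the largest difference. Its gene lies on chromosome 3 of GRCm38 (83836272 to 83841767, minus strand, with 3 exon blocks). In cohort B, the 7 WT mice had between 25.1 and 30.6 normalised counts with a median of 26.8, and the 7 TG mice had between 46.8 and 85.2 with a median of 61.3. In cohort A, the 4 WT mice had 25.6, 27.6, 37.6 and 40.04 normalised counts, and the 3 TG mice had 61.2, 105 and 155. The groups did not overlap in either cohort, and the lowest TG mouse of all, at 46.8, was above the highest WT mouse, at 40.04. The mean was 29.4 ± 4.92 normalised counts (SD, n = 11) in WT and 75.5 ± 32.7 (SD, n = 10) in TG mice. This was a 2.57-fold difference (log2FC 1.36, SE 0.15, adjusted p = 8.17e-08 in edgeR). Fitted separately, cohort B gave 1.16 (adjusted p = 1.92e-06), and cohort A gave 1.73 (adjusted p = 0.00519). The spread among TG mice was 62.0 ± 12.96 (SD, n = 7) in cohort B, compared with 27.5 ± 1.81 among its WT mice, and 107 ± 46.8 (SD, n = 3) in cohort A, where TG mouse 8 was the highest, compared with 32.7 ± 7.15 among its WT mice. Over all WT mice the coefficient of variation was 16.7%, below the 18.8% that counting error alone gives. The WT spread, above all that of cohort B, may therefore be understated.

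Tlr1, the partner of TLR2 for triacylated lipoproteins, rose as well. It lies on chromosome 5 (64924679 to 64933563, minus strand). The 11 WT mice had between 5.22 and 13.4 normalised counts (median 11.4), and the 10 TG mice had between 14.9 and 43.4 (median 19.5). The highest WT mouse was thus below the lowest TG mouse, by 13.4 against 14.9 normalised counts. Its log2FC was 1.10 (SE 0.20, adjusted p = 8.49e-05), and each cohort by itself was past the threshold, with 0.85 in B (adjusted p = 0.00231) and 1.599 in A (adjusted p = 0.0299). These levels rest on 114 counts in all WT mice together and 240 in all TG mice together.

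Tlr6, the partner of TLR2 for diacylated lipoproteins, is the neighbour of Tlr1 on chromosome 5 (64952031 to 64960097, minus strand) and closely resembles it. WT mice had between 4.18 and 17.1 normalised counts (median 11.4) and TG mice between 9.76 and 17.9 (median 13.2), so that the groups overlapped almost completely. A log2FC of 0.29 (SE 0.21, adjusted p = 0.279) was not past the threshold. Its 95% interval from -0.14 to 0.71 contains no difference as well as the values of Tlr4 and Cd14, but not those of Tlr1 and Tlr2. The transcripts of the pair share 259 stretches of 100 bases, the read length, which is 7.89% of those of Tlr1 and 7.09% of those of Tlr6. Reads from these stretches could be assigned to either gene or divided between them, so the levels of both are uncertain to that extent. Within mice, the ratio of Tlr1 to Tlr6 counts had a median of 1 in WT (0.385 to 2.25) and 1.58 in TG mice (1.13 to 3), and 10 of 10 TG mice lay above the WT median, but only 3 of 10 above every WT mouse. The mean of its log2 values was higher by 0.68 in TG mice (SD 0.69 in WT and 0.49 in TG mice), a difference that was not tested.

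Tlr4, the lipopolysaccharide receptor, differed less. It lies on chromosome 4 (66827584 to 66930284, plus strand). WT mice had between 35.2 and 67.0 normalised counts (median 48.5) and TG mice between 36.3 and 105 (median 61.3). Only 3 of 10 TG mice were above every WT mouse, although 9 of 10 were above the WT median. The mean was 48.2 ± 9.01 (SD) in WT and 64.6 ± 18.8 (SD) in TG mice, giving a log2FC of 0.42 (SE 0.14, adjusted p = 0.0194). This call depended on TG mouse 8, without which the log2FC was 0.32 (adjusted p = 0.0618), and it was 0.30 without TG mice 8 and 9 (adjusted p = 0.103). Neither cohort by itself had Tlr4 past the threshold, with 0.29 in B (adjusted p = 0.187) and 0.70 in A (adjusted p = 0.0966). The ratio of Tlr2 to Tlr4 counts had a median of 0.563 in WT and 1.11 in TG mice, and 9 of 10 TG mice exceeded every WT mouse in this ratio.

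Cd14, which binds lipopolysaccharide and lipoproteins and passes them to the receptors, is a gene of a single exon block on chromosome 18 (36725067 to 36726798, minus strand). WT mice had between 34.9 and 56.1 normalised counts (median 45.7) and TG mice between 47.6 and 97.1 (median 59.4). In cohort A, the 3 TG mice had 83.7, 85.6 and 97.1 normalised counts, well above the 4 WT mice at 34.9 to 49.5. In cohort B, the TG mice (47.6 to 68.3) overlapped the WT mice (36.3 to 56.1). Over all mice, 7 of 10 TG mice lay above every WT mouse, and the log2FC was 0.56 (SE 0.12, adjusted p = 0.000339). Fitted separately, cohort A gave 1.05 (adjusted p = 0.00640), and cohort B gave 0.31 (adjusted p = 0.0482). The effect in A exceeded that in B by 0.71 (SE 0.20) in an edgeR fit with an interaction of genotype and cohort. This difference had an unadjusted p of 0.00161 and was not past the threshold after adjustment (adjusted p = 0.812). By this interaction 0 genes passed after adjustment in edgeR, while 1059 genes (5.56%) had an unadjusted p-value under 0.05, and Cd14 was the only one of the 8 members among them.

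Ly96 encodes MD-2, the lipopolysaccharide-binding subunit of the TLR4 complex, and lies on chromosome 1 (16688051 to 16709611, plus strand). It was the rarest member, with 3 to 16 counts per mouse and 189 counts in all 21 mice. WT mice had between 3.09 and 16.9 normalised counts and TG mice between 5.59 and 12.1, so that the range of the TG mice lay within that of the WT mice. Ly96 had a log2FC of -0.11 (SE 0.24, adjusted p = 0.741), and its 95% interval from -0.62 to 0.39 leaves out a rise of the size seen for Tlr2 or Tlr1. In WT mice, the coefficient of variation was 47.0% where counting error alone gives 33.2%.

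Of the signalling proteins, Myd88, the adaptor of most Toll-like receptors and of the interleukin-1 receptor family, had the highest counts of the members and the log2FC closest to 0. It lies on chromosome 9 (119335934 to 119341411, minus strand). WT mice had between 91.2 and 141 normalised counts (median 109.7) and TG mice between 92.3 and 134 (median 105). This log2FC was -0.012 (SE 0.068, adjusted p = 0.908), with a 95% interval from -0.15 to 0.13, and its sign changed with scaling by library size only (0.067). Irak4, the kinase that MYD88 recruits, lies on chromosome 15 (94543643 to 94581815, plus strand). WT mice had between 22.5 and 38.7 normalised counts (median 31.8) and TG mice between 27.4 and 55.6 (median 36.5), and 5 of 10 TG mice lay above every WT mouse. A log2FC of 0.24 (SE 0.12, adjusted p = 0.112) was not past the threshold, except with scaling by library size only (0.31, adjusted p = 0.0347), a scaling that moved the median of all genes to 0.076. Exons of the opposite strand overlap 290 bases of Myd88 (Acaa1a) and 395 bases of Irak4 (Twf1), which are 11.3% and 7.87% of their exons. Whether counting used the strand is not given in the sources used here, so reads of these genes and of their partners cannot be told apart there.

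**Figure D2:**
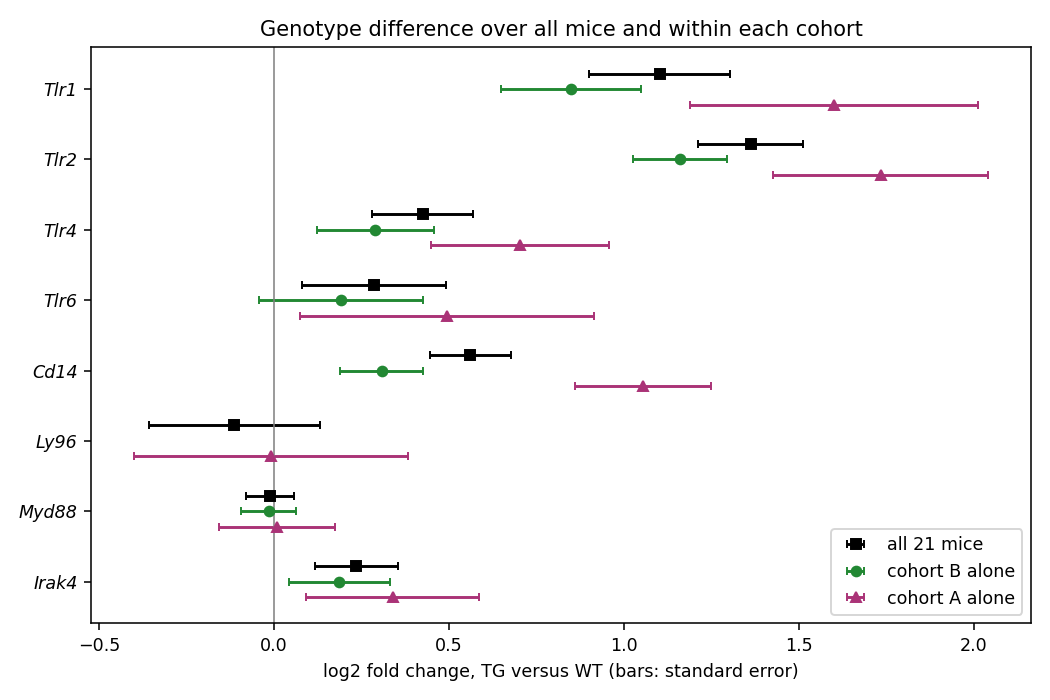
Log2 fold change of TG versus WT mice (x axis) for each member over all 21 mice (squares), in cohort B alone (circles) and in cohort A alone (triangles), with bars for the standard error. The values of Tlr2 are 1.36, 1.16 and 1.73, those of Myd88 lie between -0.016 and 0.0083, and Ly96 had too few counts to be tested in cohort B alone.

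For the members that rose, the interaction fit gave an effect in cohort A that exceeded that in cohort B by 0.72 for Tlr1 (SE 0.41), 0.54 for Tlr2 (SE 0.30), 0.38 for Tlr4 (SE 0.30) and 0.71 for Cd14. Without TG mouse 8 these differences were 0.30 for Tlr1, 0.17 for Tlr2, 0.074 for Tlr4 and 0.64 for Cd14. These values come from 1 fit of both cohorts and so differ slightly from the separate fits. None of the differences over all mice was past the threshold after adjustment (0.880 for Tlr1 and Tlr2 and 0.883 for Tlr4 as adjusted p in edgeR). Within cohort A, 3 of the 8 members were higher (Tlr1, Tlr2 and Cd14), where 11.8% of all genes tested changed (6.99% higher and 4.83% lower). Within cohort B, 3 of the 7 members tested were higher (again Tlr1, Tlr2 and Cd14), where 39.1% of all genes tested changed (19.3% higher and 19.8% lower).

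Per length of transcript, the order of the members in WT mice was Myd88 (42.5 ± 5.07 normalised counts per kilobase, SD), Cd14 (26.02 ± 3.92), Tlr2 (9.76 ± 1.63), Ly96 (9.22 ± 4.33), Tlr4 (8.68 ± 1.62), Irak4 (6.40 ± 0.958), Tlr1 (3.20 ± 0.742) and Tlr6 (2.91 ± 1.11). Myd88 and Cd14 did not overlap among WT mice, with 35.4 as the lowest value of Myd88 and 32.4 as the highest of Cd14. Tlr2, Ly96 and Tlr4 differed by less than their spread, as did Tlr1 and Tlr6. In TG mice Tlr2, at 25.0 ± 10.8 per kilobase, had a higher mean than Tlr4 (11.6 ± 3.39), with ranges that overlapped (15.5 to 51.3 against 6.52 to 18.8), and did not overlap Ly96 (8.41 ± 2.34, 5.48 to 11.8), while Cd14 (38.5 ± 9.52) was within the spread of Myd88 (41.8 ± 4.64). Lengths are those of all annotated exons of a gene, and the transcripts present in the tissue may be shorter.

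**Figure D3:**
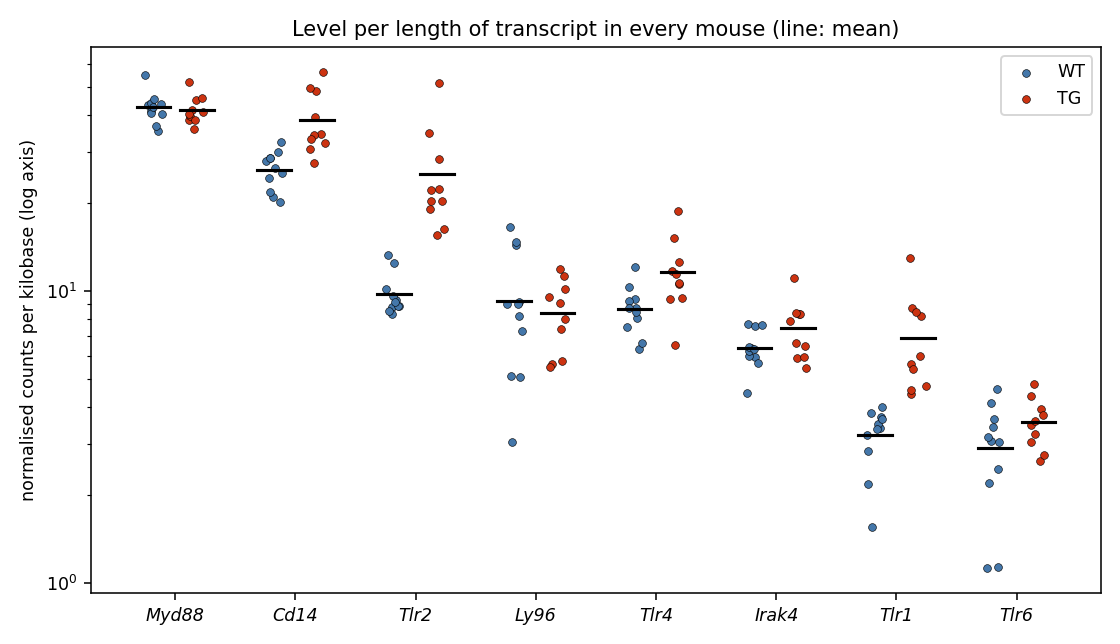
Normalised counts per kilobase of annotated exons (y axis, log scale) in every WT and TG mouse, with members ordered by the WT mean and lines for the means. Tlr2 lies among Ly96 and Tlr4 in WT mice (9.76, 9.22 and 8.68) and its mean is above theirs in TG mice (25.0, 8.41 and 11.6), where its range overlaps that of Tlr4.

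Bases before annotated starts of transcription, which can lie within a gene, were searched on both strands. The motifs were the NF-kappaB consensus, GAAA repeated after any 2 bases, and GAGGAAGT. The GAAA repeat is the core of the element bound by interferon regulatory factors, and GAGGAAGT is a form of the site of the myeloid factor PU.1. The windows of 250 bases were those of RefSeq for GRCm38.p6, searched for Tlr1, Tlr2, Tlr6, Myd88 and Irak4. No window of Tlr4, Cd14 or Ly96 was searched. Over all 32851 windows, 5% held the NF-kappaB consensus, 2.98% held the GAAA repeat and 2.44% held GAGGAAGT. Irak4 held none of these letters. The stretches of 30 bases around each match are shown 5′ to 3′ on the strand of the gene, with the match in capitals, because they set the pair of members with the largest differences beside Tlr6 and Myd88, which did not pass the threshold. On the minus strand of GRCm38.p6 they are chr3:83841761-83841790 for Tlr2, chr5:64933563-64933592 for Tlr1, chr5:64959260-64959289 for Tlr6 and chr9:119340039-119340068 for Myd88.
Tlr2: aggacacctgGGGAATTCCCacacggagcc
Tlr1: attaaatgttgGAGGAAGTaggagcttgaa
Tlr6: ctattctTTTCTCTTTCACTTTCtgtttga
Myd88: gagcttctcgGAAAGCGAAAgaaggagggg
The match of Tlr2 is a palindrome of the NF-kappaB consensus that ends 162 bases before the start used (83841608). The match of Tlr1 is GAGGAAGT, which ends 15 bases before the start. Tlr6 holds a pair of overlapping matches to the GAAA repeat on the opposite strand, and Myd88 holds 1 on its own strand, 30 bases before the start. For Tlr1 and Tlr6, 1 of 2 annotated starts had a match. The bases after the RefSeq starts of Tlr6 were not found in a GENCODE transcript of the gene, so its window rests on a RefSeq start only. The stretches of Tlr1, Tlr2 and Myd88 overlap an exon annotated in GENCODE. On the minus strand a gene begins at its highest position, which RefSeq places at 83841824 for Tlr2, 64933600 for Tlr1 and 64970942 for Tlr6. The stretches of Tlr2, Tlr1 and Tlr6 thus precede the start used but lie within the RefSeq span of the gene. A match describes the letters only and shows no binding.

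Beside the members, other genes of the pathway were counted by lists. The share of all genes tested that were higher (22.4%) or lower (21.2%) applies beside each list. Of the 8 other Toll-like receptors, 6 were tested, 2 were higher and 0 were lower (median log2FC 0.20). Those that rose were endosomal receptors for microbial RNA, Tlr13 (from 50.8 ± 12.2 to 69.7 ± 15.5 normalised counts, SD, log2FC 0.47, adjusted p = 0.00152) and Tlr7 (from 75.1 ± 9.80 to 93.4 ± 21.3, log2FC 0.32, adjusted p = 0.00973). Tlr9, the receptor for unmethylated DNA, had a log2FC of 0.38 that was not past the threshold (adjusted p = 0.0909), and Tlr3 had -0.037 (adjusted p = 0.737) at 295 ± 35.5 normalised counts in WT mice.

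Among 9 genes of ligand delivery, coreceptors and receptor folding, 5 were higher and 1 was lower (median log2FC 0.22). Cd180, which encodes RP105, a relative of TLR4 without a signalling domain, had a log2FC of 1.31 (SE 0.12, adjusted p = 2.61e-09), with 47.1 ± 10.4 normalised counts in WT and 116 ± 24.6 in TG mice. Ly86, which encodes MD-1, the subunit that RP105 uses in place of MD-2, had a log2FC of 0.84 (SE 0.080, adjusted p = 9.04e-09). For both genes every TG mouse was above every WT mouse. Itgb2, the common beta chain of the leukocyte integrins, had a log2FC of 0.49 (adjusted p = 0.00107). The gene that fell was Hsp90b1, a chaperone of Toll-like receptors in the endoplasmic reticulum (log2FC -0.17, adjusted p = 0.0114), which with scaling by library size only was no longer past the threshold. Values for the pair of Cd180 and Ly86 and for that of Tlr4 and Ly96 were thus 1.31 and 0.84 in the former and 0.42 and -0.11 in the latter.

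Of 14 adaptors and kinases downstream of the receptors, 5 were higher and 4 were lower, and the median log2FC was 0.11. Ticam1, which encodes TRIF, the adaptor of TLR3 and of endocytosed TLR4, rose by 0.33 on the log2 scale (adjusted p = 0.000310), and Traf6, the ubiquitin ligase downstream of the IRAK kinases, by 0.30 (adjusted p = 0.00356). Ikbkg, which encodes the regulatory subunit NEMO of the IkappaB kinase, had a log2FC of -0.22 (adjusted p = 0.000174). These genes are used by most cell types. With counts scaled by library size only, 7 of them were higher and 3 were lower. Of 10 inhibitors of the pathway, 0 were higher and 2 were lower, namely the deubiquitinase gene Cyld (log2FC -0.75, adjusted p = 1.07e-08) and Tollip (log2FC -0.18, adjusted p = 0.000912), while scaling by library size only gave 1 higher and 2 lower. Irak3, which encodes the inhibitory IRAK-M of myeloid cells, had a log2FC of 0.063 (adjusted p = 0.760).

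Of 16 inflammatory target genes, 11 had enough counts to be tested, of which 8 were higher and 1 was lower. Of the 8, 5 were chemokine genes (Ccl2, Ccl3, Ccl4, Ccl5 and Cxcl10) with few counts in WT mice, which passed the filter on low counts only through the TG mice and so had to differ. Their count is given as a description, with no median for the list. Furthest apart on the log2 scale were Cxcl10 (from 3.56 ± 3.33 to 142 ± 53.1 normalised counts), Ccl5 (from 1.49 ± 1.97 to 44.7 ± 20.6) and Ccl4 (from 1.51 ± 2.12 to 16.01 ± 13.1). The other 3 were Il1a, which encodes a cytokine of the interleukin-1 family (log2FC 1.10, adjusted p = 1.10e-05), the adhesion molecule gene Icam1 (log2FC 1.002, adjusted p = 9.02e-07) and the transcription factor gene Irf1 (log2FC 0.35, adjusted p = 0.00424). Cxcl10 and Ccl5 are also targets of interferons. The gene that fell was Ptgs2, which encodes cyclooxygenase-2 and is expressed in excitatory neurons of the cortex (log2FC -0.69, adjusted p = 2.02e-05). The cytokine genes Tnf, Il1b, Il6 and Il12b had too few counts to be tested.

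**Figure D4:**
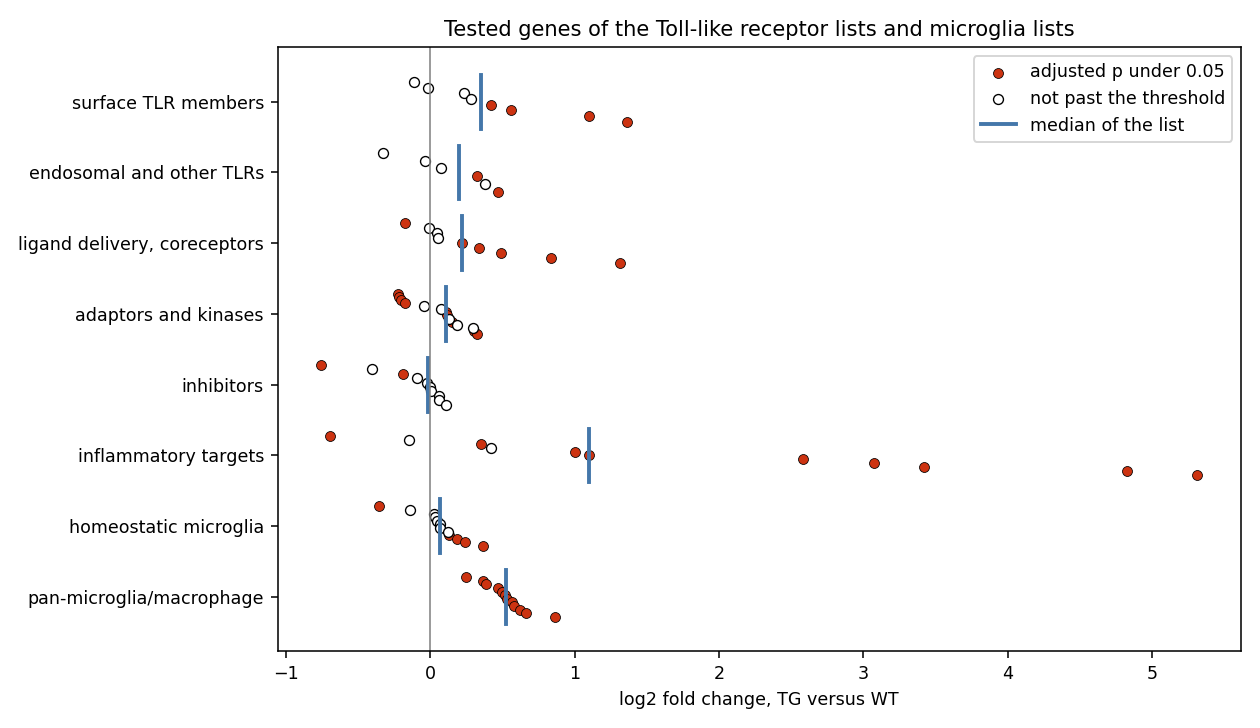
Log2 fold change of TG versus WT mice (x axis) for each tested gene of the members, of 5 further pathway lists and of both microglia lists, with filled points past an adjusted p of 0.05 and vertical lines at the median. The medians are 0.36 for the members and -0.011 for the inhibitors, and 5 of the inflammatory targets passed the filter on low counts only through the TG mice.

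The receptors are mainly microglial genes, and in bulk tissue more cells of a type and more RNA per cell cannot be told apart. Of 12 homeostatic microglia markers, 4 were higher and 1 was lower (P2ry12, log2FC -0.35), with a median log2FC of 0.067. Their summed level was between 9421 and 10701 normalised counts in WT and between 9847 and 13230 in TG mice, and 7 of 10 TG mice were above every WT mouse. Of 12 pan-microglia and macrophage genes, including the lysosomal protease gene Ctss (log2FC 0.86) and Cd68 (0.67), 12 were higher. The median was 0.52, and the summed level was between 5205 and 6571 in WT and between 6151 and 12856 in TG mice. Both sums were highest in TG mouse 8.

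Relative to the summed homeostatic markers of the same mouse, Tlr2 was higher in TG than in WT mice by 1.15 on the log2 scale (-7.30 ± 0.426 against -8.44 ± 0.196, SD), and 10 of 10 TG mice were above every WT mouse. Tlr1 was higher by 0.94, Cd14 by 0.41 and Tlr4 by 0.26 in this ratio, while Myd88 was lower by 0.16 (-6.69 ± 0.084 against -6.54 ± 0.140). Relative to the summed pan-microglia and macrophage genes, Tlr2 was higher by 0.73, with 9 of 10 TG mice above every WT mouse, and Tlr1 by 0.52, with 4 of 10. In this ratio Cd14 (-0.0079) and Tlr4 (-0.16) were not higher, and Myd88 was lower by 0.58, with 10 of 10 TG mice below every WT mouse. These ratios were not tested, and the choice of marker list decided the sign for Cd14, Tlr4, Tlr6 and Irak4.

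**Figure D5:**
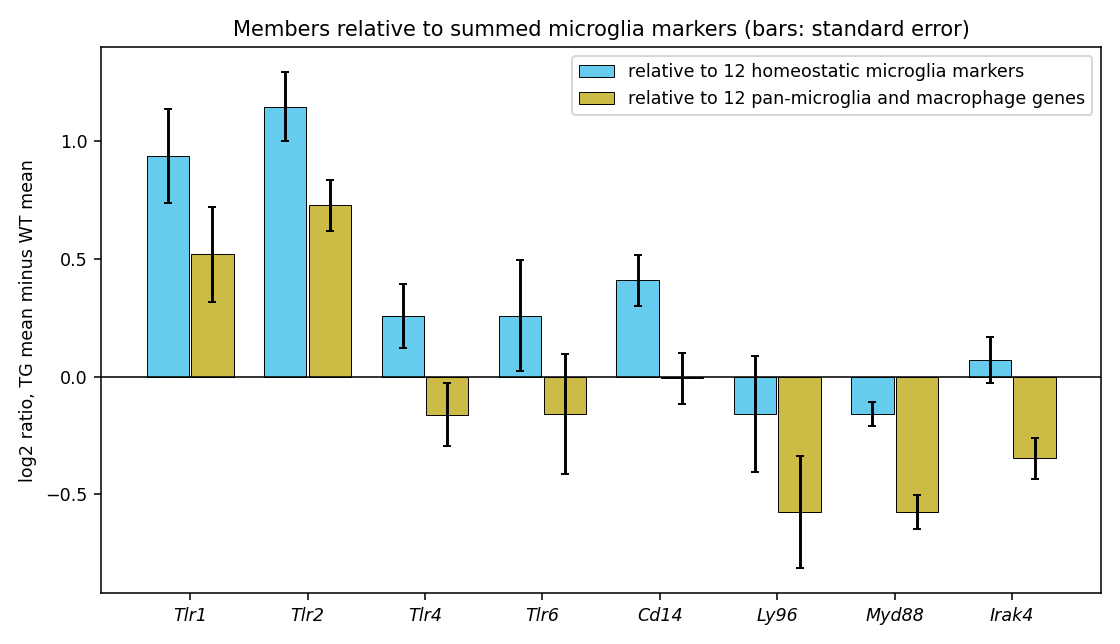
Difference between TG and WT means of the log2 ratio of each member to the summed level of 12 homeostatic microglia markers or of 12 pan-microglia and macrophage genes (y axis), with bars for the standard error. Tlr2 (1.15 and 0.73) and Tlr1 (0.94 and 0.52) are above 0 in both, whereas Myd88 (-0.16 and -0.58) and Ly96 are below 0 in both.

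Markers of other cell types were also counted. Of 10 markers of border macrophages and monocytes, 8 were tested, all but Ccr2 and Chil3, with a median log2FC of 0.32. Past the threshold 1 was higher, Plac8 (from 1.51 ± 1.63 to 14.2 ± 8.30 normalised counts), which also passed the filter only through the TG mice. Their summed level was between 177 and 308 normalised counts in WT and between 202 and 400 in TG mice (399.7 in TG mouse 8), and Mrc1, the defining gene of border macrophages, was at 106 ± 26.1 normalised counts in WT and 121 ± 28.3 in TG mice, with a log2FC of 0.19 (adjusted p = 0.325). None of 8 neutrophil markers had enough counts to be tested. Their summed level was between 4.13 and 38.7 normalised counts in WT and between 9.57 and 108 in TG mice, where the highest value, that of TG mouse 8, came mainly from Ltf (82.0). Of 8 lymphocyte markers, 1 was tested, Cd4, which fell (log2FC -1.24, adjusted p = 0.00347), while Cd3e and Cd3d were near 0. Of 8 astrocyte markers, 1 was higher, Gfap, a marker of reactive astrocytes (log2FC 1.03, adjusted p = 4.98e-08), and 5 were lower. Of 8 endothelial markers, 1 was higher (Ly6c1) and 2 were lower (Flt1 and Kdr), while 0 of 8 oligodendrocyte markers passed the threshold. The part of these cell types in the differences of the members was not tested.

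After the mean of each genotype in each cohort had been removed, genes with at least 50 counts per mouse on average were ranked by the correlation of their log2 CPM with each member over the 21 mice. Closest to Cd14 were the immediate early genes Junb (Pearson's r = 0.84) and Fos (r = 0.82) and the transcription factor gene Mafk (r = 0.79). In contrast to Cd14, Junb and Fos were lower in TG mice (log2FC -0.54 and -0.97). Closest to Tlr4 were Mpp6 (r = 0.84), the interferon-induced Rsad2 (r = 0.83) and Rnase4 (r = 0.83). Closest to Tlr2 were Gm10443 (r = 0.79), Gm16477 (r = 0.76) and 1810058I24Rik (r = 0.76), and closest to Tlr1 were 4933439C10Rik (r = 0.85), Pus7 (r = 0.85) and Ankrd24 (r = 0.84). For Irak4 they were Serpinh1 (r = 0.80), Id3 (r = 0.79) and the microglia marker Tmem119 (r = 0.78), and for Myd88 they were Il10rb (r = 0.74), Capg (r = 0.73) and Blnk (r = 0.72). For the rarest members they were Rbm45, Tpx2 and Slc39a8 (Tlr6, r = 0.70 to 0.78) and Rbp4, Hpgd and Mrps30 (Ly96, r = 0.65 to 0.72). These are the 3 highest values for each member among at least 14587 genes over the same libraries, and they describe these mice only. Between members the same correlations were at most 0.45 (Tlr2 and Irak4), and 0.25 for Tlr1 and Tlr2. Pairs of members were not picked as the highest of many genes, so their values cannot be set against those above.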

How the data were processed

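Counts were deposited by the authors as whole reads per gene symbol and mouse, without normalization. Per the paper's methods, RNA with RIN above 7 was sequenced at BGI and reads were aligned to GRCm38. The submitters' processing notes name HISAT, HISAT2, Bowtie, Bowtie2 and RSEM without versions, and which of them made the counts, and the strand setting, are not given in the sources used here. RSEM divides reads that fit several genes. Rows for further copies of a symbol (2553, holding 4.11% of counts) were kept, and no member had one.

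Counts were tested in R 4.3.3 with edgeR 4.0.16, using filterByExpr (minimum count 10, minimum total 15), TMM, and the quasi-likelihood test with genotype and cohort, with Benjamini-Hochberg adjustment over 19052 genes and a threshold of 0.05. The test was checked on simulated counts. Standard errors are the log2 fold change over the square root of F. Correlations used log2 CPM with a prior count of 2. Positions and exon lengths are from GENCODE M21 (GRCm38). Other fits tried were DESeq2 1.42.0 (the study's tool), a fit lacking the cohort term, other scalings and filters, single cohorts and the removal of mice. Planned for naming were all members and, per list, at most the 3 genes with the largest change past the threshold, together with relatives of the members. Further genes were named outside this rule, among them Hsp90b1, Il1a, Icam1, Irf1, Ptgs2, Mrc1, Drd2 and Rorb. One list of neuronal markers is not reported here. The members, lists and rules were chosen with earlier results of these data known. Reads carry no molecular identifiers, so counting errors cover counting only. The labels give 1 library per mouse.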

Additional observations from a re-analysis of the deposited data

Results flagged for a closer look

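Among 39 genes named in the lists or as members, the 10 TG mice were searched for a mouse whose gap to its nearest neighbour is large against the whole range (Dixon's criterion). Mice of both cohorts were pooled and cohort means were not removed, so a difference in level between cohorts enters the gaps. The criterion was met for 6 genes and for 0 of the 8 members. Chance gives about 1.95 if all mice are of one population, and the genes are not independent. TG mouse 8 was highest for Itgb2 (ratio 0.506, 3.71 log2 CPM against 3.09 in the next mouse) and for Ccl4 (ratio 0.535). TG mouse 9 was lowest for Traf6 (ratio 0.586, 3.84 against 4.44), Ikbkg (ratio 0.641, 4.89 against 5.15) and the astrocyte gene Slc1a2 (ratio 0.472). TG mouse 1 was lowest for Ctss (ratio 0.507, 6.16 against 6.64). Of these 6 genes, 5 point to TG mouse 8 or TG mouse 9, both of cohort A.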

How the results depend on the processing

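Tlr1, Tlr2 and Cd14 stayed past the threshold under every alternative in which they were tested, and Tlr6 and Ly96 under none. With at least 10 counts required in every mouse, Tlr1, Tlr6 and Ly96 were not tested. Cohort A by itself gave 2195 changed genes, and leaving out single mice gave 7908 to 8514. Tlr4 was no longer past the threshold in cohort B (0.29) or cohort A (0.70) by itself, or without TG mice 8 and 9 (0.30). Leaving out 1 mouse at a time gave 0.32 to 0.49 for Tlr4, and only without TG mouse 8 was it not past the threshold. Myd88 was positive with scaling by library size only (0.067), with no filter (0.0031) and in cohort A (0.0083), and between -0.038 and 0.015 without single mice. Irak4 passed the threshold with scaling by library size only (0.31). For the difference between cohorts, leaving out single mice gave 0.30 to 1.02 for Tlr1, 0.17 to 0.82 for Tlr2, 0.074 to 0.53 for Tlr4, 0.0020 to 0.48 for Tlr6, 0.62 to 0.78 for Cd14, -0.052 to 0.44 for Ly96, -0.11 to 0.078 for Myd88 and -0.098 to 0.29 for Irak4. The cause of these shifts was not tested.

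In cohort B by itself, 1 endosomal or other receptor, 2 homeostatic markers and 0 border macrophage markers changed. Homeostatic markers changed in number to 3 without TG mice 8 and 9, and border macrophage markers to 2 with scaling by library size only and 3 with DESeq2. Relative to pan-microglia genes in place of homeostatic markers, the difference was 0.73 for Tlr2, -0.16 for Tlr4, -0.0079 for Cd14, -0.58 for Myd88 and -0.35 for Irak4. Relative to homeostatic markers in cohort A, that of Cd14 was 0.85. Low counts limit the precision for the members, most for Ly96, Tlr1 and Tlr6, which had the fewest counts. No paired analysis was possible because the labels give mouse numbers and no replicate number shared between genotypes.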
